A study of Homo sapiens with 6 samples.

Results

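The genes described here make up the folding and quality-control machinery of the endoplasmic reticulum (ER): 43 genes for lectin chaperones, HSP70 and HSP90 chaperones, disulfide isomerases, degradation factors, signalling genes of the unfolded protein response and the Sec61 translocon. They were chosen by gene symbol from a list, and all 43 were found among the 58735 rows of the count table, each on a single row. The cells were ACHN cells, a human renal cancer line, grown in minimum essential medium with fetal bovine serum and transfected with a control siRNA (3 libraries) or with an siRNA against OTUD1 (labelled si01, 3 libraries). OTUD1 is a deubiquitinase, and the study concerns its effect on STAT3 and on the checkpoint ligand PD-L1. A single OTUD1 siRNA was used, so effects of its sequence and of lower OTUD1 cannot be told apart, and the labels give no time after transfection. Whether the 3 libraries of a group are separate cultures is not stated in the labels. The p-values therefore describe the spread among these samples alone, and that spread may be technical.

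Proteins that enter the secretory pathway pass through the Sec61 channel into the ER, where BiP (HSPA5) and GRP94 (HSP90B1) hold unfolded chains and protein disulfide isomerases form and rearrange disulfide bonds. Glycoproteins bind the lectins calnexin (CANX) and calreticulin (CALR) through a monoglucosylated glycan, and UGGT1 adds the glucose back to chains that are still misfolded. Chains that fail are trimmed by EDEM mannosidases, recognised by OS9 or ERLEC1 and moved to the cytosol by the SEL1L-SYVN1 ligase complex with derlins for degradation by the proteasome. When unfolded proteins accumulate, IRE1 (ERN1), which splices XBP1 mRNA, and ATF6 switch on many of these genes, often through the ER stress element in their promoters.

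That element is shown first because some members share it by sequence. It is known from promoters of such genes, as said above, so a higher share among members is not an independent result. It was searched as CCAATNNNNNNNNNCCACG on both strands of RefSeq promoter windows (GRCh38.p14, 250 bases before to 50 bases after each start). Of the 43 members, 40 had a window; CALR, CANX, CRELD2, ERO1B, HSP90B1, HSPA5, PDIA6 and XBP1, together 8 of 40 (20.0%), carried an exact match. Among all 27305 genes with a window, 25 did (0.0916%). Capitals mark the CCAAT and CCACG blocks, and each site is written 5′ to 3′ on its own strand.
HSPA5 (chr9:125241391-125241409, minus strand): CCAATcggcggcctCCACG
HSP90B1 (chr12:103930216-103930234, plus strand): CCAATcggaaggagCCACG
HSP90B1 (chr12:103930321-103930339, minus strand): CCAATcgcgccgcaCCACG
CANX (chr5:179698778-179698796, plus strand): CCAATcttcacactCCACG
CALR (chr19:12938384-12938402, minus strand): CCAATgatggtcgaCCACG
PDIA6 (chr2:10812853-10812871, minus strand): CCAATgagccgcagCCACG
ERO1B (chr1:236282183-236282201, plus strand): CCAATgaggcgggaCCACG
XBP1 (chr22:28800603-28800621, minus strand): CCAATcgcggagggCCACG
CRELD2 (chr22:49918554-49918572, minus strand): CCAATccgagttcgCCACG
The match lies 47 bases from the start of HSPA5 and 33 bases from that of XBP1. In CALR, ERO1B and CRELD2, and at the second HSP90B1 site, it lies on the strand opposite to the gene. The CANX site is shared by the windows of 3 annotated starts.

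A shorter arrangement, ATTGGNCCACG (known as ER stress element II, with the CCAAT block inverted and moved next to CCACG), was carried by HERPUD1, HYOU1 and SDF2L1, that is by 3 of 40 members (7.5%) and by 19 of all 27305 genes (0.0696%). HYOU1 has 2 copies.
HERPUD1 (chr16:56932025-56932035, plus strand): ATTGGgCCACG
HYOU1 (chr11:119057274-119057284, plus strand): ATTGGaCCACG
HYOU1 (chr11:119057380-119057390, plus strand): ATTGGaCCACG
SDF2L1 (chr22:21642114-21642124, minus strand): ATTGGtCCACG
Another motif, TGACGTGG, known as a binding sequence of ATF6 and XBP1, was searched in the same way and matched in 5 of 40 members (12.5%) and in 253 of all 27305 genes (0.927%). A letter match does not show that a factor binds there, and promoter activity was not measured.

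OTUD1 mRNA was low and lower still after the siRNA, with 61, 67 and 65 counts in the control libraries and 28, 17 and 25 counts in the OTUD1 siRNA libraries (log2 fold change -1.69, SE 0.24, adjusted p = 4.37e-07 by edgeR). The groups did not overlap. Total counts ran from 16753495 to 21013530 per library. Levels below are in CPM, the count relative to the library total after TMM scaling. A log2 fold change is OTUD1 siRNA over control siRNA with its standard error (SE), a gene is said to have risen or fallen where the Benjamini-Hochberg adjusted p of edgeR's quasi-likelihood test over all 15244 genes tested was under 0.05, and errors are SD over 3 libraries. Renal epithelial markers were present (PAX8, KRT8 and KRT18 among them), and 8 of 9 could be tested. Their summed level was 6682 to 6930 CPM in control and 3586 to 3713 CPM in OTUD1 siRNA libraries. KRT8 (mean 4112 and 1957 CPM) and KRT18 (mean 1604 and 726 CPM) made up most of that sum. Of these markers 5 fell and 2 (KRT19 and EPCAM) rose, CDH1 did not pass and CDH6 was at 0. Among all genes tested 31.1% fell and 29.3% rose. Of 6 leukocyte markers PTPRC, CD3E and LYZ were at 0 and the sum stayed at or below 1.58 CPM, and 7 fibroblast and endothelial markers summed to 8.15 to 10.3 CPM in control and 12.5 to 15.2 CPM in OTUD1 siRNA libraries. Of 5 plasma-cell markers, SDC1, which epithelial cells also express, made up nearly all counts, and it rose; JCHAIN, MZB1 and IRF4 had no count in the control libraries. The part of these marker shifts in the results was not tested, and in such bulk samples fewer cells of a kind and less RNA per cell cannot be told apart.

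All 3 lectin-cycle genes fell and all 3 signalling genes rose, 7 of 10 tested degradation factors fell, and 6 of 12 isomerases and oxidases rose while 1 fell. Of 42 members with enough counts to be tested, 13 rose and 15 fell and 14 did not pass. Among all genes tested, 29.3% rose and 31.1% fell (60.4% in either direction), so the members' shares of 31.0% and 35.7% lie near the background. Among the 8955 tested genes with a mean level no lower than that of the lowest tested member (13.6 CPM), 29.7% rose and 42.3% fell. The groups did not overlap for 29 of the 42 tested members, 13 higher and 16 lower, against 64.5% of all genes tested (31.5% higher and 33.0% lower).

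Most of the members' changes were small. CANX, CALR and ERN1 alone among them passed the test with a log2 fold change of at least 0.5 in size, whereas 14.4% of all genes tested rose and 13.6% fell by that much. Called members had a median absolute log2 fold change of 0.28, and all called genes one of 0.47. All genes tested include many below the level of the lowest tested member (13.6 CPM), and sizes of change were not compared at like level. The median log2 fold change of the 42 members was -0.06, beside 0.01 for all genes tested.

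**Figure D1:**
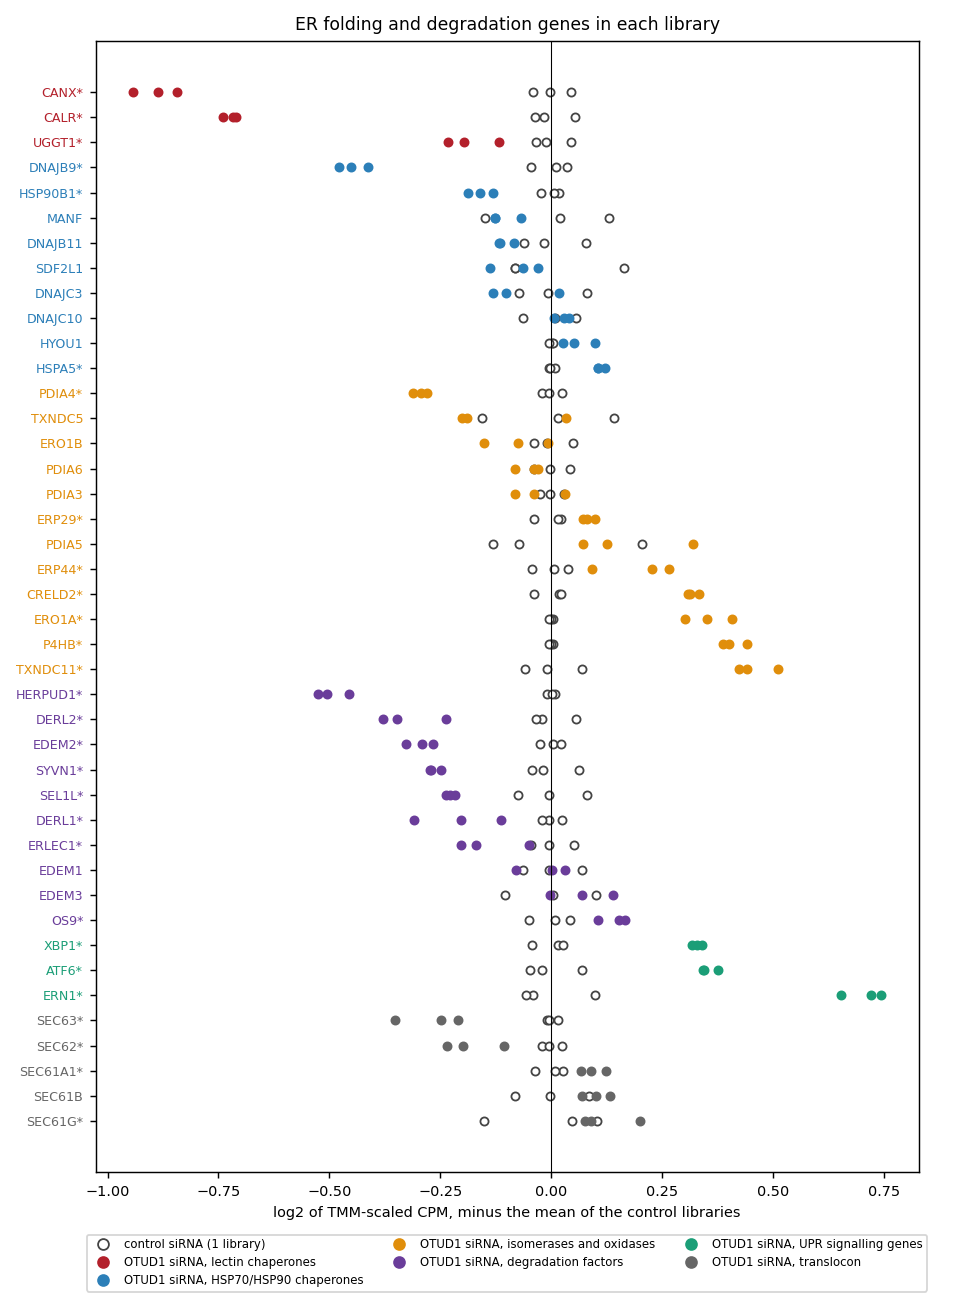
Level of each of the 42 tested members in each library, as log2 CPM minus the mean of the 3 control libraries (open circles, control siRNA; filled circles, OTUD1 siRNA, coloured by role; an asterisk marks an edgeR adjusted p under 0.05). CANX and CALR lie farthest to the left and ERN1 farthest to the right, with no overlap between groups.

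The lectin chaperones gave the largest decreases among the members. CANX (ENSG00000127022.14; hg38 chromosome 5, 179678628 to 179730925, plus strand), the membrane-bound lectin, was at 727, 772 and 746 CPM in the control libraries and at 390, 417 and 405 CPM in the OTUD1 siRNA libraries. Every OTUD1 siRNA library lay far below every control library, a 1.85-fold decrease (log2 fold change -0.89, SE 0.031, with an adjusted p of 5.84e-20 by edgeR). CALR (ENSG00000179218.13; chromosome 19, 12938578 to 12944489, plus strand), its soluble relative in the ER lumen, was at 1612, 1514 and 1537 CPM in control and 931, 950 and 945 CPM in OTUD1 siRNA libraries. It fell 1.65-fold (log2 fold change -0.72, SE 0.027, with an adjusted p of 2.82e-19 by edgeR), again with a wide gap between the groups.

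UGGT1, the glucosyltransferase that returns misfolded glycoproteins to these lectins, was at 167, 176 and 169 CPM in control and 145, 157 and 149 CPM in OTUD1 siRNA libraries, which do not overlap. It fell 1.13-fold (SE 0.039 on the log2 scale, edgeR adjusted p = 0.000169). Its call was lost with library totals (log2 fold change -0.05, edgeR adjusted p = 0.232) and after quantile normalization (-0.06, limma adjusted p = 0.227), whereas CANX and CALR kept theirs under all 14 alternatives. The summed level of the 3 genes was 2474 ± 27.9 CPM in control and 1496 ± 28.9 CPM in OTUD1 siRNA libraries.

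The HSP70 and HSP90 chaperones and their helpers moved little: of 9 members, 1 rose, 2 fell and 6 did not pass, beside 29.3% higher and 31.1% lower among all genes tested. HSPA5 (BiP), the main ER HSP70, was at 2790, 2763 and 2771 CPM in control and 2985, 3016 and 2985 CPM in OTUD1 siRNA libraries. It rose 1.08-fold (log2 fold change 0.11, SE 0.022, with an adjusted p of 0.000105 by edgeR), a small change that still exceeded the narrow spread of either group. The size of the HSPA5 change depended on the scaling, with 0.24 for library totals and 0.32 after quantile normalization. HSP90B1 (GRP94) was at 1392, 1431 and 1421 CPM in control and 1266, 1291 and 1242 CPM in OTUD1 siRNA libraries, 1.12-fold lower (log2 fold change -0.16, SE 0.026, with an adjusted p of 3.92e-06 by edgeR), but its direction flipped after quantile normalization (0.07, limma adjusted p = 0.0132) and its call was lost with library totals (-0.03, edgeR adjusted p = 0.304).

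DNAJB9 (ERdj4), a J-domain co-chaperone of BiP that also restrains IRE1, showed the largest change of this group. It went from 73.7, 74.9 and 70.9 CPM to 52.5, 55.0 and 53.5 CPM, a 1.36-fold decrease with a clear gap (log2 fold change -0.45, SE 0.049, with an adjusted p of 5.42e-09 by edgeR). DNAJC10 (ERdj5), a J-domain protein with reductase activity, was nearest to no change, at 242, 263 and 254 CPM in control and 260, 258 and 254 CPM in OTUD1 siRNA libraries. Its values overlapped, and its log2 fold change of 0.02 had a 95% interval of -0.05 to 0.09.

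The other co-chaperones and BiP partners did not pass. HYOU1 (GRP170), the nucleotide exchange factor of BiP, was at 282 to 284 CPM in control and 288 to 303 CPM in OTUD1 siRNA libraries, which do not overlap (log2 fold change 0.06, edgeR adjusted p = 0.109). DNAJB11 (ERdj3), at 76.3 to 83.9 and 73.3 to 75.1 CPM, did not overlap either (-0.11, edgeR adjusted p = 0.0547). DNAJC3, SDF2L1 and MANF overlapped between groups, with log2 fold changes of -0.07, -0.08 and -0.11. Without control siRNA replicate 2, DNAJB11 (-0.13) and MANF (-0.18) passed as lower, as did MANF with no filter on low counts (-0.12).

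Among the 12 disulfide isomerases and oxidases, 6 rose, 1 fell and 5 did not pass, with a median log2 fold change of 0.13. Among all genes tested, 29.3% rose and 31.1% fell. P4HB (PDI), the founding isomerase and a subunit of collagen prolyl hydroxylase, was at 746, 743 and 741 CPM in control and 981, 972 and 1009 CPM in OTUD1 siRNA libraries. It rose 1.33-fold with a gap many times the spread within a group (log2 fold change 0.41, SE 0.027, with an adjusted p of 9.39e-14 by edgeR). PDIA4 (ERp72), an isomerase with an additional thioredoxin-like domain, went the other way, from 1218, 1180 and 1194 CPM to 965, 977 and 986 CPM, 1.23-fold lower (log2 fold change -0.3, SE 0.026, with an adjusted p of 5.76e-11 by edgeR). Over the 14 alternatives the log2 fold change of PDIA4 ran from -0.30 to -0.07.

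TXNDC11, a thioredoxin-domain protein of the ER membrane, was at 35.2, 32.2 and 33.3 CPM in control and 47.8, 45.0 and 45.6 CPM in OTUD1 siRNA libraries, the largest rise of this group (1.38-fold, SE 0.06 on the log2 scale). ERO1A, the oxidase that recharges PDI, was at 81.2, 80.9 and 80.7 CPM in control and 103, 107 and 99.7 CPM in OTUD1 siRNA libraries, 1.28-fold higher (SE 0.043 on the log2 scale). Neither gene's groups overlapped. CRELD2, which has isomerase activity, rose 1.25-fold, ERP44, which retains oxidases in the early secretory pathway, rose 1.15-fold, and ERP29 rose 1.06-fold.

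PDIA3 (ERp57), the isomerase that works with CANX and CALR on glycoproteins, was nearest to no change in this group. Its control libraries were at 382, 396 and 388 CPM and its OTUD1 siRNA libraries at 367, 397 and 378 CPM, which overlap (log2 fold change -0.03, 95% interval -0.1 to 0.04). PDIA5, PDIA6, TXNDC5 and ERO1B also overlapped, with log2 fold changes of 0.17, -0.05, -0.12 and -0.08. PDIA3 and PDIA6 had positive log2 fold changes after quantile normalization (0.17 and 0.18) and with library totals (0.1 and 0.08), and passed there as higher. PDIA5 passed as higher without control siRNA replicate 1 (0.27) or OTUD1 siRNA replicate 2 (0.22), and TXNDC5 as lower without control siRNA replicate 3 (-0.2) or OTUD1 siRNA replicate 3 (-0.2). The call of ERP29 ended without control siRNA replicate 2 (0.07), without OTUD1 siRNA replicate 1 (0.08) or 2 (0.08), and with no filter (0.07).

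Of the 11 degradation factors, 7 fell, 1 rose, 2 did not pass and DERL3 had too few counts to be tested, and the 10 tested had a median log2 fold change of -0.22. Of all genes tested, 31.1% fell and 29.3% rose, and 42.3% fell among the 8955 at or above the lowest tested member's level. HERPUD1, which binds the ligase complex and is itself induced by ER stress, was at 237, 240 and 239 CPM in control and 168, 174 and 166 CPM in OTUD1 siRNA libraries. It fell 1.41-fold, with no library near the other group (log2 fold change -0.49, SE 0.034, with an adjusted p of 3.53e-13 by edgeR). DERL2, a derlin of the dislocation channel, went from 96.1, 101 and 95.1 CPM to 76.6, 82.7 and 75.0 CPM, 1.25-fold lower (log2 fold change -0.32, SE 0.047). EDEM2, the mannosidase that starts glycan trimming for degradation, went from 57.8, 58.5 and 56.6 CPM to 45.9, 47.9 and 47.1 CPM, 1.23-fold lower (log2 fold change -0.29, SE 0.052).

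The core ligase pair fell together: SYVN1 (HRD1), the ubiquitin ligase, by 1.2-fold and SEL1L, its adaptor, by 1.17-fold. DERL1 was 1.15-fold lower and the lectin ERLEC1 1.1-fold lower. OS9, the other lectin that reads trimmed glycans, was the single degradation factor to rise, from 198, 193 and 186 CPM to 216, 214 and 207 CPM (log2 fold change 0.14, SE 0.036, with an adjusted p of 0.00106 by edgeR), and its groups did not overlap.

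EDEM1 stood nearest to no change, at 87.1, 95.5 and 90.8 CPM in control and 86.2, 93.0 and 91.2 CPM in OTUD1 siRNA libraries (log2 fold change -0.02, 95% interval -0.11 to 0.08). EDEM3 also overlapped (log2 fold change 0.07). DERL3, a derlin of secretory tissues, had 4, 6 and 12 counts in control and 0, 4 and 2 counts in OTUD1 siRNA libraries. From the summed 22 and 6 counts the control level was 4.3-fold that after OTUD1 siRNA, with an exact 95% binomial interval of 1.69 to 13.0 that covers counting error only. With no filter on low counts DERL3 was tested and called lower (log2 fold change -2.03, edgeR adjusted p = 0.0386), a fitted value that depends on the prior count.

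Some degradation calls depended on a library or the scaling. ERLEC1, whose groups nearly touch, was no longer called when control siRNA replicate 1 (-0.12) or OTUD1 siRNA replicate 1 (-0.12) or 3 (-0.11) was left out, with library totals (-0.01), after quantile normalization (-0.04) or with a minimum mean of 5 CPM (-0.09). SYVN1 (-0.14) and DERL1 (-0.08) no longer passed with library totals, nor DERL1 after quantile normalization (-0.13).

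All 3 signalling genes of the unfolded protein response rose, against 29.3% of all genes tested. ERN1 (ENSG00000178607.15; chromosome 17, 64039142 to 64130819, minus strand), the IRE1 sensor that splices XBP1 mRNA, was at 13.6, 15 and 13.5 CPM in control and 22.1, 23.1 and 23.5 CPM in OTUD1 siRNA libraries. It rose 1.63-fold, the largest increase of any member (log2 fold change 0.7, SE 0.084, with an adjusted p of 2.88e-08 by edgeR). ATF6, the membrane-bound factor released by cleavage in the Golgi, rose 1.28-fold from 80.9, 87.7 and 82.5 CPM to 106, 108 and 106 CPM (SE 0.043 on the log2 scale).

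XBP1, the transcription factor whose mRNA IRE1 splices, rose 1.26-fold, from 148, 142 and 149 CPM to 182, 185 and 183 CPM (log2 fold change 0.33, SE 0.036, with an adjusted p of 5.84e-09 by edgeR). The groups of all 3 genes were clearly apart. Gene-level counts do not separate spliced from unspliced XBP1 and say nothing of IRE1 or ATF6 protein activity.

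The translocon genes split. Of 5, the channel subunits SEC61A1 and SEC61G rose, the accessory subunits SEC62 and SEC63 fell and SEC61B did not pass. The shares over all genes tested were 29.3% higher and 31.1% lower. SEC63, the J-domain partner that recruits BiP to the channel, went from 99.4, 97.7 and 98.0 CPM to 82.8, 85.0 and 77.1 CPM, 1.2-fold lower (log2 fold change -0.27, SE 0.045, with an adjusted p of 8.05e-06 by edgeR). SEC62, which acts with it in import after translation, went from 79.3, 80.2 and 81.8 CPM to 74.7, 68.4 and 70.1 CPM (log2 fold change -0.18, SE 0.047), and was not called with library totals (-0.05) or after quantile normalization (-0.08).

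SEC61A1, the pore-forming subunit, was at 381, 365 and 376 CPM in control and 407, 398 and 392 CPM in OTUD1 siRNA libraries (log2 fold change 0.09, SE 0.031, with an adjusted p of 0.0099 by edgeR), the smallest change of the 5. SEC61G was at 94.1, 112 and 108 CPM in control and 110, 111 and 120 CPM in OTUD1 siRNA libraries, which overlap although the gene passed (log2 fold change 0.12, SE 0.051, with an adjusted p of 0.049 by edgeR). SEC61G was no longer called by DESeq2 or limma-voom (0.12 each), without control siRNA replicate 1 (0.04) or without OTUD1 siRNA replicate 1 (0.14), 2 (0.13) or 3 (0.08), SEC61A1 without OTUD1 siRNA replicate 1 (0.08), and SEC61B (0.1) gained one without control siRNA replicate 1 (0.14).

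**Figure D2:**
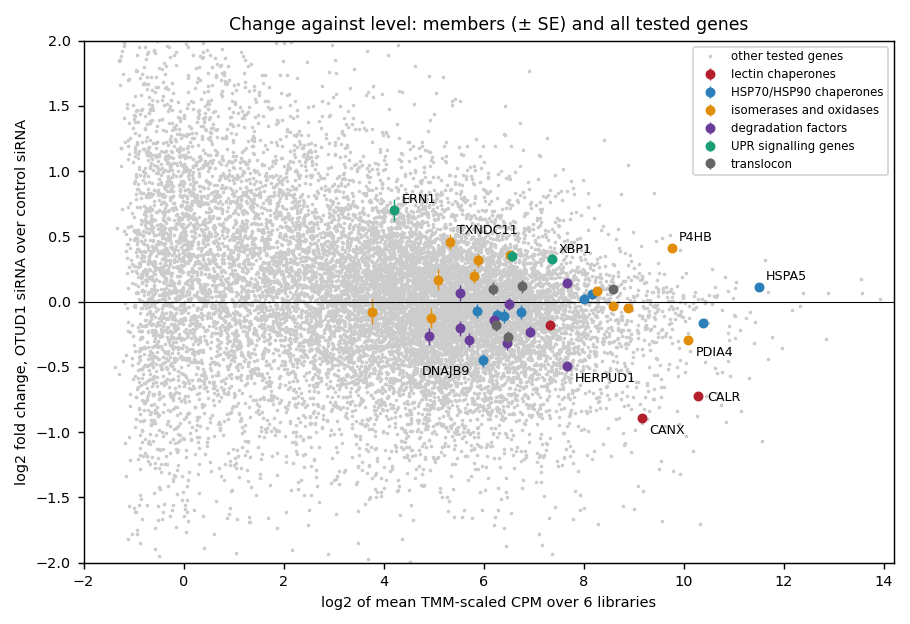
Log2 fold change (OTUD1 siRNA over control siRNA) against log2 mean CPM over 6 libraries, for all tested genes (grey points) and members (coloured by role, bars ± SE); 93 genes lie outside the plotted range. CANX and CALR sit below the other members, ERN1 above them, and most members lie within 0.5 of the line at 0.

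Relative to gene length, the same 5 genes led in both groups. Levels per kilobase of annotated exon were highest for HSPA5 (710 CPM per kb in control, 766 after OTUD1 siRNA), CALR (573 and 347), PDIA4 (365 and 298), HSP90B1 (301 and 269.7) and P4HB (140.2 and 186) in that order. CANX moved from place 6 (120.1 CPM per kb) to place 11 (64.7 CPM per kb), behind PDIA6, ERP29, SDF2L1, PDIA3 and SEC61A1. Lower down, ERO1A moved from place 30 to 22 (10.7 to 13.7 CPM per kb) and ATF6 from 32 to 23 (10.6 to 13.6). DERL2 moved from 22 to 29 (15.3 to 12.2) and SEL1L from 25 to 31 (13.7 to 11.7). Levels lie close together there, so small changes move a gene by many places. In control libraries CANX and PDIA6 (118 CPM per kb) were neighbours whose levels differed by less than their spread. ERO1B (2.6 CPM per kb), ERN1 (1.29) and DERL3 (0.113) had the lowest levels in control libraries. Exon length is the union over all annotated transcripts, which understates genes with long rare exons, such as DNAJC10 with 21.8 kb.

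**Figure D3:**
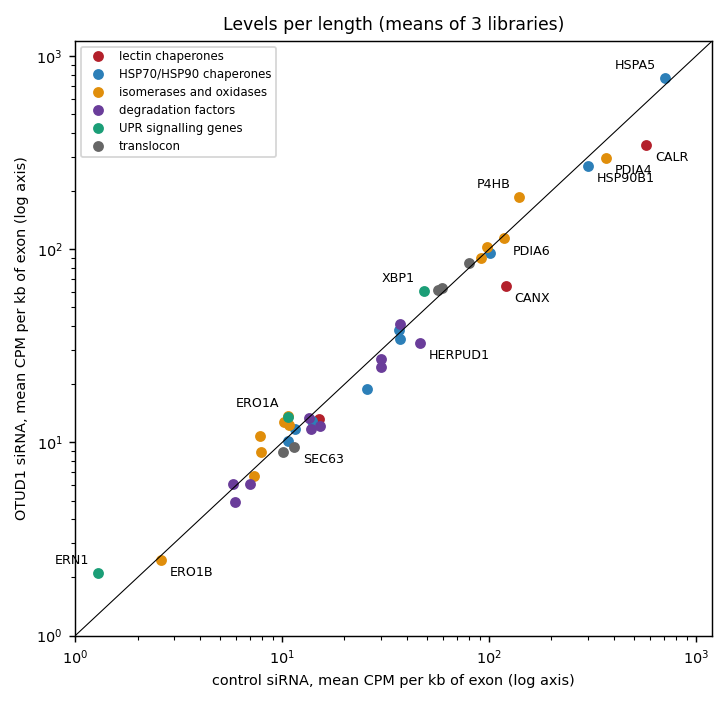
Mean level per kilobase of exon in control siRNA (x) and OTUD1 siRNA (y) libraries, 3 each, for the 42 tested members on log axes, coloured by role; the line marks equal levels. HSPA5 is highest in both groups, and CANX falls from 120.1 to 64.7 CPM per kb, the farthest below the line among the members above 50 CPM per kb.

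The summed level of the 43 members was 13005 ± 64.0 CPM in control and 12112 ± 83.3 CPM in OTUD1 siRNA libraries, 1.07-fold lower by TMM, whereas as a share of all counts it was 1.24% to 1.25% in control and 1.26% to 1.28% in OTUD1 siRNA libraries, so the direction of the sum depends on the scaling. Lectin genes made up 0.234% to 0.239% of all counts in control and 0.153% to 0.159% in OTUD1 siRNA libraries, a decrease on either scale. The HSP70 and HSP90 group summed to 5137 ± 6.3 CPM and 5184 ± 47.1 CPM, the isomerases and oxidases to 3410 ± 40.4 and 3482 ± 19.2 CPM, and the degradation factors to 1013 ± 18.0 and 896 ± 15.7 CPM. As shares of all counts, the HSP70 and HSP90 group was at 0.491% in control and 0.536% to 0.547% in OTUD1 siRNA libraries. Isomerases and oxidases were at 0.323% to 0.329% and 0.361% to 0.365%. Degradation factors were at 0.0957% to 0.0989% and 0.0919% to 0.0953%, which nearly touch.

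Ratios of partner genes within a library need no scaling, and 14 pairs of paralogues or partners were compared. For 8 pairs the 6 libraries fell into separate groups. Each of these pairs had the smallest p that 3 against 3 libraries allow in a two-sided exact permutation test (p = 0.1, adjusted p = 0.175 over the 14 pairs), so no pair could pass 0.05. Separate groups are common in these data: 64.5% of all single genes tested did not overlap. Ratios of other gene pairs were not computed. The ratio of PDIA3 to CANX was 0.525, 0.513 and 0.519 in control and 0.942, 0.952 and 0.934 in OTUD1 siRNA libraries, 1.82-fold higher. Such a ratio of counts also depends on the lengths of the 2 genes. Per kilobase of exon, PDIA3 was at 91.6 CPM in control and 89.8 CPM after OTUD1 siRNA, and CANX at 120.1 and 64.7 CPM. CALR, the other lectin that PDIA3 works with, stayed above it in both groups (1554 and 942 CPM, against 388 and 381 CPM for PDIA3).

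PDIA4 to P4HB went from 1.63, 1.59 and 1.61 to 0.984, 1.0 and 0.977, a 1.63-fold decrease. CALR to CANX was 2.22, 1.96 and 2.06 in control and 2.39, 2.28 and 2.33 in OTUD1 siRNA libraries, 1.12-fold higher. ERO1B to ERO1A was 1.35-fold lower after OTUD1 siRNA, ERLEC1 to OS9 1.22-fold, EDEM2 to EDEM1 1.21-fold, HSP90B1 to HSPA5 1.21-fold and HYOU1 to HSPA5 1.04-fold, the last with its nearest libraries of the 2 groups almost equal.

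The other 6 pairs overlapped: EDEM3 to EDEM1, DERL2 to DERL1, SYVN1 to SEL1L, SEC63 to SEC62, SEC61B to SEC61A1 and SEC61G to SEC61A1, with log2 differences from -0.11 to 0.08. SYVN1 and SEL1L, which form 1 complex, had a ratio of 0.249 ± 0.018 in control and 0.242 ± 0.0039 in OTUD1 siRNA libraries (exact permutation p = 0.6).

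**Figure D4:**
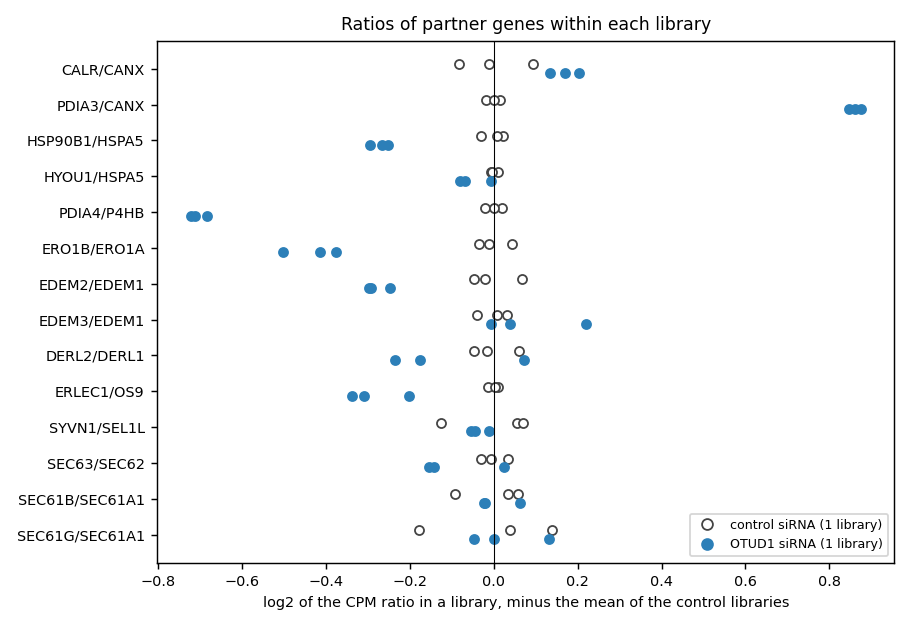
Log2 ratio of CPM of 2 partner genes in each library, minus the mean of the 3 control libraries (open circles, control siRNA; blue circles, OTUD1 siRNA). PDIA3/CANX lies farthest to the right (1.82-fold higher) and PDIA4/P4HB farthest to the left (1.63-fold lower), while SYVN1/SEL1L and both SEC61 pairs overlap.

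Members that share the ER stress element did not share a direction. Of the 8 with an exact match shown above, HSPA5, XBP1 and CRELD2 rose, CANX, CALR and HSP90B1 fell (HSP90B1 with the exception given above), and PDIA6 and ERO1B did not pass; their median log2 fold change was -0.06, with a range of -0.89 to 0.33. Of the 3 members with the shorter element, HERPUD1 fell and HYOU1 and SDF2L1 did not pass. Of the 29 tested members with a window and neither element, 10 rose, 10 fell and 9 did not pass (median -0.02). Carriers of TGACGTGG are among these 29: TXNDC11 rose, SEC62 fell, and DNAJC10 and TXNDC5 did not pass. The levels differed, with a median of 119 CPM per kb in control for the 8 members and 13.7 CPM per kb for the 29.

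Neighbouring steps of the pathway were read from 113 further genes in 5 lists, of which 109 were tested: 30 rose and 41 fell (27.5% and 37.6%, with the background of 29.3% and 31.1%). Among 19 genes of glycan transfer and trimming, 9 rose and 5 fell. GANAB, the catalytic subunit of glucosidase II that produces and ends the glycan form bound by calnexin, was at 202 ± 6.75 CPM in control and 475 ± 9.23 CPM in OTUD1 siRNA libraries, 2.36-fold higher (SE 0.033 on the log2 scale, edgeR adjusted p = 1.11e-22), and MOGS, glucosidase I, rose 1.76-fold. STT3B and RPN1 of the oligosaccharyltransferase fell 1.53-fold and 1.24-fold. The 19 genes named from these lists had the smallest adjusted p in each direction, and they kept direction and call in all 14 alternatives. Because they were picked on these same libraries, this is not an independent check.

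Of 20 other ER isomerase, peroxiredoxin and selenoprotein genes tested, 6 rose and 5 fell (30.0% and 25.0%, beside 29.3% and 31.1% of all genes tested). The ER peroxiredoxin PRDX4 rose 1.89-fold and the prolyl isomerase FKBP10 1.15-fold, while FKBP2, another prolyl isomerase, fell 1.94-fold and the membrane isomerase TMX1 1.31-fold. Of 25 other degradation genes, 5 rose and 12 fell (20.0% and 48.0%). Among the 8955 tested genes at or above the lowest tested member's level, 29.7% rose and 42.3% fell. FAM8A1, which helps to assemble the SYVN1 complex, fell 1.98-fold and VCP, the ATPase that extracts substrates, 1.41-fold, while the ligase TMEM129 rose 2.17-fold and AUP1 1.31-fold.

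Of 16 other genes of the unfolded protein response, 5 rose and 1 fell (31.3% and 6.25%, beside 29.3% and 31.1% of all genes tested). PPP1R15B, a phosphatase subunit that reverses eIF2α phosphorylation, fell 1.92-fold, and SIL1, an exchange factor of BiP, and CREB3L2 rose 1.3-fold and 1.18-fold. Of 29 genes of targeting, signal-peptide cleavage and ER calcium, 5 rose and 18 fell (17.2% and 62.1%). Among the 8955 tested genes at or above the lowest tested member's level, 42.3% fell. SPCS3, a signal peptidase subunit, was at 334 ± 15 CPM in control and 105 ± 0.874 CPM in OTUD1 siRNA libraries, 3.17-fold lower (SE 0.037 on the log2 scale, edgeR adjusted p = 1.79e-24), and TRAM2, a translocon-associated membrane protein, fell 3.07-fold, whereas SEC11A, a catalytic subunit of the same peptidase, rose 1.37-fold and the calcium channel ITPR2 1.48-fold.

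The way libraries were scaled decided many of the small calls. TMM factors were 0.955 to 0.957 in control and 1.05 in OTUD1 siRNA libraries, and with library totals the median log2 fold change of all genes rose by 0.13. Called members then numbered 21 higher and 9 lower (70.0% higher, against 46.4% with TMM), and 21 higher and 10 lower after quantile normalization (67.7%). HYOU1, DNAJC10, PDIA3, PDIA5, PDIA6, EDEM3 and SEC61B passed as higher under both, and EDEM1 with library totals alone. With a minimum mean of 5 CPM, HYOU1 (0.11), PDIA5 (0.22) and SEC61B (0.15) passed as higher too. Among all called genes the higher share was 48.4% with TMM, 64.2% with library totals and 52.1% after quantile normalization. Of the 28 called members, 19 kept direction and call in all 14 alternatives: P4HB, TXNDC11, ERP44, ERO1A, CRELD2, OS9, HSPA5, XBP1, ATF6 and ERN1 as higher, and CANX, CALR, DNAJB9, PDIA4, HERPUD1, EDEM2, SEL1L, DERL2 and SEC63 as lower.

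**Figure D5:**
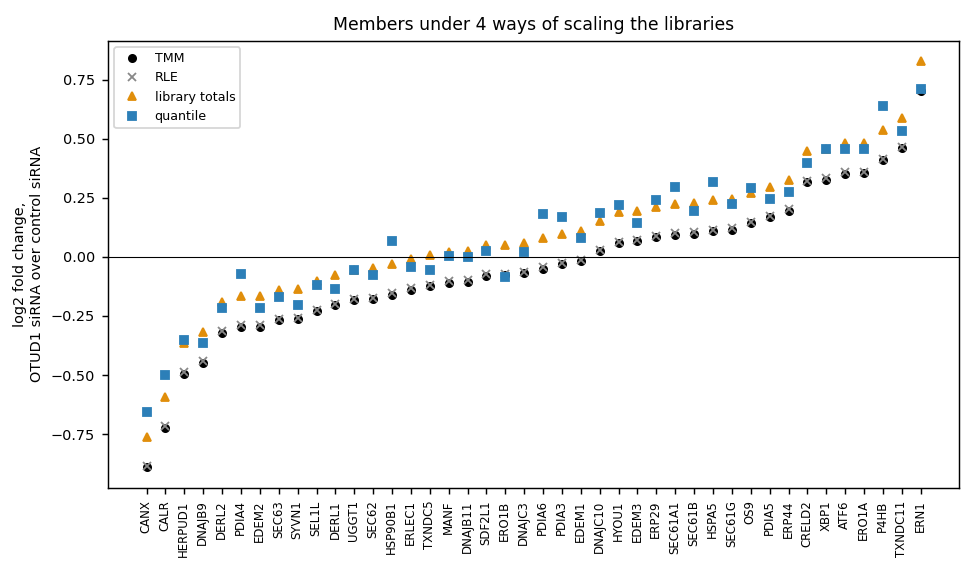
Log2 fold change (OTUD1 siRNA over control siRNA) of the 42 tested members, ordered by the TMM value, under TMM, RLE, library totals and quantile normalization. Library totals and quantile values lie above the TMM values, except the quantile value of ERO1B; CANX, CALR and HERPUD1 stay below 0 and ERN1, P4HB and TXNDC11 above 0 under all 4, while HSP90B1 lies below 0 with TMM and above 0 after quantile normalization.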

How the data were processed

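RNA-seq was made from ACHN cells with Trizol and a directional NEBNext kit, per the labels' protocols, and hg38 is the build named in the submitters' processing notes. The sources used here do not give the aligner, counter, strand setting or annotation. The deposited values are whole-number counts per gene symbol, although the file is named for FPKM. Of 58735 rows, 30560 had no count. Without a stated strand setting, reads of overlapping genes on opposite strands cannot be told apart: this holds for 22 members, and DNAJB11, PDIA5, SYVN1 and TXNDC5 share exons with a coding gene on the same strand, so their values are uncertain. PDIA3, ERP29, ERLEC1, XBP1 and SEC63 have annotated pseudogenes that may share reads.

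The test was edgeR 4.0.16 under R 4.3.3 (filterByExpr with 10 counts in 3 libraries and 15 in all, TMM, glmQLFit, glmQLFTest) and Benjamini-Hochberg adjustment over 15244 genes, with a threshold of 0.05. The biological coefficient of variation was 3.78%. Each SE was derived from the log2 fold change and the F value. Pairs of libraries within a group had a mean chi-square of 2.05 to 3.72 per gene, above sampling noise. Data were also simulated over 15030 genes, each with a coefficient of variation of 3.8%. The test recovered 68.0% of 97 log2 changes of 0.5 and 96.0% of 100 log2 changes of 1, with 5 false calls. In the real data 60.4% of genes were called, a far larger share than was changed in the simulation. These rates therefore need not hold for the real data. A count of 3 equals 0.137 to 0.188 CPM. Alternatives covered the scaling, the filter, DESeq2 1.42.0, limma 3.58.1, the replicate block and each library left out.

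Members, lists and the rule for named genes (in each role, the 3 largest called changes either way and the smallest change; in each further list, the 2 smallest adjusted p either way) were chosen with earlier results of these data known; the shorter promoter element and the motif TGACGTGG were added after the counts were seen. Promoters came from RefSeq, lengths from GENCODE 29; DERL1, DERL3 and PDIA3 had no window. MARCH6 was not analysed here. Another renal marker is not reported here.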

Additional observations from a re-analysis of the deposited data

How the results depend on the processing

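Over the 14 alternatives, members higher ran from 10 to 21 and members lower from 9 to 17. With library totals 21 members were higher and 9 lower, and after quantile normalization 21 were higher. The median log2 fold change of the members was -0.012 where a mean of at least 5 CPM was required, 0.069 with library totals and 0.073 after quantile normalization, compared with -0.060 by TMM. Leaving out 1 library gave 10 to 14 members higher, 14 to 17 lower and a median of -0.073 to -0.038. Some members changed sign. With library totals DNAJB11 was at 0.024, DNAJC3 0.059, EDEM1 0.11, ERO1B 0.052, MANF 0.020, PDIA3 0.099, PDIA6 0.079, SDF2L1 0.049 and TXNDC5 0.0064. After quantile normalization DNAJC3 was at 0.022, EDEM1 0.078, HSP90B1 0.067, MANF 0.0036, PDIA3 0.17, PDIA6 0.18 and SDF2L1 0.027. Under the 5 CPM minimum EDEM1 was at 0.030 and PDIA3 at 0.018. Of these members, HSP90B1 alone had been called by TMM. With 1 library left out, DNAJC10 ran from -0.010 to 0.055, EDEM1 from -0.052 to 0.020, SDF2L1 from -0.119 to 0.0013, the log2 ratio SEC61B/SEC61A1 from -0.039 to 0.036 and SEC61G/SEC61A1 from -0.060 to 0.099. The cause was not tested. Depth limits the low genes: the SE was 0.094 for ERO1B, the lowest tested member, and 0.022 for HSPA5, the highest.

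Replicate numbers did not pair the libraries: same-numbered libraries had correlations of deviations of -0.023, 0.018 and -0.018. With the replicate number as a block, 14 members were higher and 16 lower, with PDIA5 (0.17) and DNAJB11 (-0.11) gaining a call.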
